A study of Mus musculus with 28 samples.

Results

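Solute carriers are membrane proteins that move amino acids, sugars, ions, metals and other small molecules across cell membranes. They were taken here as the rows of the deposited RNA table with a name that starts with Slc and a digit, without the mitochondrial Slc25 carriers. This gave 8 of the 3147 genes in that table, and each of the 8 also had a row among the 6250 genes with ribosome footprints. The 8 are Slc7a2, Slc3a2, Slc15a3, Slc2a6, Slc4a7, Slc27a4, Slc9a3r1 and Slc4a1ap, and the last pair carry the family name without being carriers themselves. The cells were dendritic cells grown with GM-CSF from bone marrow of female C57BL/6J mice, either given lipopolysaccharide (LPS, a bacterial cell wall component recognised by Tlr4) at 100 ng/ml or given a mock stimulation. All cells had their medium exchanged at time 0 for protein labelling. RNA was measured at 0 h, and in LPS and mock cells at 1, 2, 4, 6, 9 and 12 h, in 26 libraries that formed 13 groups of 2. Footprints, the mRNA fragments held by ribosomes, came from 2 libraries of resting cells.

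Levels are TPM, which count transcripts per length as a share of a fixed total in each library, so each level is relative to the genes listed and the sequencing depth is unknown. Differences are given as log2 fold changes of TPM plus 1, LPS minus mock at the same time, with the standard error (SE) of limma, a linear model fitted to all genes. A difference is called where limma's adjusted p over all 3147 genes was under 0.05. Nothing in the labels ties the replicates to different cultures, so a p-value here covers only library-to-library spread, which may be technical. Of 8 dendritic cell markers, 4 were in the RNA table (Itgax, Cd74, H2-Aa and H2-Ab1), with a summed level of 9658 to 19758 TPM at 0 h, 8910 to 18635 in mock and 7244 to 20965 in LPS libraries. Of 10 neutrophil and precursor markers 7 were listed, with sums of 3173 to 3200 TPM at 0 h, 2492 to 11097 in mock and 1165 to 8678 in LPS libraries. Of 6 macrophage markers 3 were listed (Csf1r, Mrc1 and Cd14), with sums of 645 to 1120 TPM at 0 h, 541 to 976 in mock and 436 to 2743 in LPS libraries. The part of these other cells in the results was not tested, and fewer cells of a type and less RNA per cell cannot be told apart in bulk samples. Of 4 mast cell and basophil, 4 B cell, 4 T cell and 3 red cell precursor markers, 0 had a row among the RNA or footprint genes. The part of these cells could therefore not be assessed.

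Activated myeloid cells take up arginine through Slc7a2 (CAT2), the cationic amino acid carrier, and arginine feeds nitric oxide and polyamine synthesis. Slc3a2 (CD98 heavy chain) is the subunit that brings several amino acid exchangers to the cell surface, and Slc15a3 is a proton-coupled carrier of histidine and small peptides in the endolysosomal membrane. Slc2a6 (GLUT6) belongs to the facilitative glucose carrier family, Slc4a7 (NBCn1) brings in sodium with bicarbonate and so acts on cell pH, and Slc27a4 (FATP4) takes part in fatty acid uptake by activating fatty acids to acyl-CoA. Slc9a3r1 (NHERF1) is a PDZ-domain scaffold that ties membrane proteins to ezrin and the actin cortex. Slc4a1ap (kanadaptin) was named for its association with an anion exchanger.

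The promoter windows of the 3 rising genes with an entry and of Slc4a7, whose response differed between early and late times on the deposited scale, are printed to show the sequence just around their start sites. RefSeq held a window for 6 of the 8 genes, from 250 bases before to 50 bases after the start in GRCm38.p6, and gave none for Slc7a2 or Slc15a3. Each is read 5′ to 3′ on the gene's strand, in lower case, with a motif match in capitals. Slc2a6 lies at chr2:27027949-27028248 (minus strand), Slc3a2 at chr19:8713848-8714147 (minus strand), Slc9a3r1 at chr11:115163091-115163390 (plus strand) and Slc4a7 at chr14:14718534-14718833 (plus strand).
Slc2a6: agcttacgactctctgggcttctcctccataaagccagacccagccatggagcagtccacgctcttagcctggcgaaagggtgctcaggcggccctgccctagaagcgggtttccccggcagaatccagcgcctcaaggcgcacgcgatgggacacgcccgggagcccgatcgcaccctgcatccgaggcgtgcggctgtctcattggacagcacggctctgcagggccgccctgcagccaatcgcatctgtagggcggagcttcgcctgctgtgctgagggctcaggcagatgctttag
Slc3a2: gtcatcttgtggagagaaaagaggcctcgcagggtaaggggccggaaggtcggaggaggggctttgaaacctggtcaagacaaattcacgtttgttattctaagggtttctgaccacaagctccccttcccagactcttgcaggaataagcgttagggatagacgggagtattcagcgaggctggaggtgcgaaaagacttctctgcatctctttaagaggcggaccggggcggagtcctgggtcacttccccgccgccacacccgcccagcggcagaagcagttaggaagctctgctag
Slc9a3r1: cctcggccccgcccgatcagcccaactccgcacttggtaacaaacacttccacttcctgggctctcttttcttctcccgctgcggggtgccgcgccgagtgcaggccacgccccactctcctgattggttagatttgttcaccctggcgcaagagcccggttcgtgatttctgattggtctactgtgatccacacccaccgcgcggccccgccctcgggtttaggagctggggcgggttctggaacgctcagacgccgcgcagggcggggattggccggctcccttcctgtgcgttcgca
Slc4a7: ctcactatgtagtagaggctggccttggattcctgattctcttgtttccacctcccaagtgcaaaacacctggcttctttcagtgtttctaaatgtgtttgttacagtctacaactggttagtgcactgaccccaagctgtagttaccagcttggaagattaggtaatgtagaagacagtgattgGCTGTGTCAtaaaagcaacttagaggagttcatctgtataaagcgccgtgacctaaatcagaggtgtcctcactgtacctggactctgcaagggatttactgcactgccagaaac

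The windows of Slc2a6 and Slc9a3r1 were rich in G and C, at 64.7% and 64.3%, and held 22 and 27 CpG pairs. The Slc3a2 window had 56.0% G and C with 15 CpG pairs, and the Slc4a7 window 45.0% with 2. Both strands of all 6 windows were searched for 5 short motifs, overlaps included. The motifs were an interferon response core (GAAANNGAAA, in 3.44% of 32851 promoter windows of this length), an NF-kB type (GGGNNNTTCC, 5.56%), an amino acid response type (TGATGNAA, 3.97%), an antioxidant response type (TGACNNNGC, 12.4%) and the E-box CACGTG (7.15%). The only matches were the antioxidant type in Slc4a7 (GCTGTGTCA as read on the gene's strand, bases 186 to 194 of the window) and the NF-kB type in Slc27a4 (GGAACGACCC, bases 117 to 126). The windows printed for Slc2a6, Slc3a2 and Slc9a3r1 held none of these letters, and a match or its absence describes only this window.

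Of the 8 genes, 6 differed between LPS and mock over the time course by limma's F test over the 6 times, where 57.2% of all genes were called. The early effect, averaged over 1 h and 2 h, was higher in LPS cells for 6 of the 8 and lower for 0, against 8.39% and 9.72% of all genes (18.1% in either direction). The late effect, the mean of 6, 9 and 12 h, was higher for 5 and lower for 2, against 15.5% and 47.7% of all genes (63.2% in either direction). The median log2 fold change of the 8 was 0.73 early and 0.48 late, beside -0.10 and -0.43 over all genes tested. Slc7a2, Slc15a3 and Slc2a6 rose most, Slc9a3r1 and Slc3a2 rose less, and Slc4a7 was high early and, on the deposited scale but not after rescaling, low late.

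At single times, 3 of the 8 were called higher at 1 h (3.27% of all genes), 4 at 2 h (6.39%), 4 at 4 h (8.74%), 3 at 6 h (11.2%), 5 at 9 h (10.1%) and 4 at 12 h (10%). The 1 call of a lower level was Slc4a1ap at 12 h, while 0.794%, 8.04%, 29.2%, 30%, 30% and 26.8% of all genes were called lower at the 6 times. Calls in either direction took 4.07%, 14.4%, 37.9%, 41.2%, 40.1% and 36.8% of all genes. With the replicate number as a block in the model, 5 of the 8 were called at 1 h (17.3% of all genes), 6 at 2 h (27.7%), 4 at 4 h (57.1%), 5 at 6 h (57.8%), 6 at 9 h (56.9%) and 6 at 12 h (53.2%). The counts at 4 h and 6 h were near the share of all genes called in either direction. By direction, 4 were higher and 0 lower at 4 h (12.1% and 44.9% of all genes), and 4 were higher and 1 lower at 6 h (14.8% and 42.9%). Leaving out 1 library at a time gave 1 to 3 called at 1 h, 3 to 5 at 9 h and 2 to 3 at 12 h, where 5 were called in all. A fit without 1 library can have a larger SE, so a lost call need not mean a smaller effect. For Slc2a6 at 1 h, leaving out mock replicate 1 took the SE from 0.44 to 0.55 and the effect from 1.92 to 2.10. The libraries left out where a call was lost are named with each gene, and the share of all genes called in these fits was not counted. TPM are shares of a total, and the median gene was 0.43 lower late on the log2 scale. Rescaling by median ratios brought that median to -0.03, and 5 of the 8 were then higher and 0 lower late, against 26.2% and 25.9% of all genes.

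**Figure D1:**
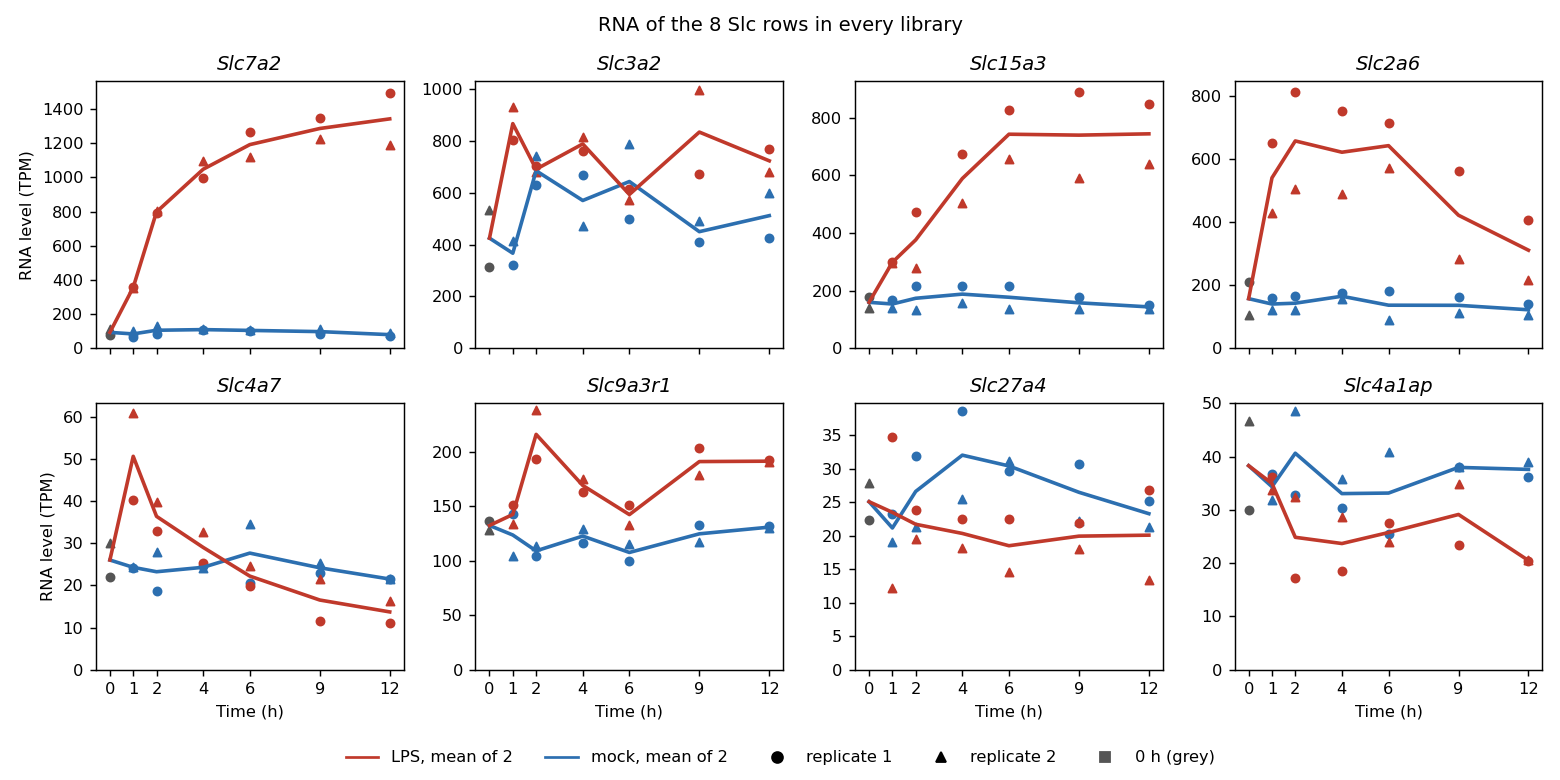
TPM on a linear axis from 0 against hours, one panel per gene, with replicate 1 as circles, replicate 2 as triangles, 0 h in grey, mock in blue and LPS in red, and lines through the means of 2 libraries. Slc7a2, Slc15a3 and Slc2a6 stand apart from mock at all 6 times, while Slc4a7 crosses from above mock at 1 h to below it at 12 h.

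The amino acid carrier Slc7a2 rose most of the 8 and rose further with time. At 0 h its 2 libraries held 74.5 and 111 TPM. In LPS cells it held 361 and 352 TPM at 1 h, 792 and 805 at 2 h, and by 4 h they were 998 and 1098, against 64.4 and 103, 82.1 and 128, and 105 and 113 in mock cells. Every LPS library thus stood above every mock library by 4 h, and the 2 LPS libraries lay close together. Its LPS libraries then held 1264 and 1121 TPM at 6 h, 1351 and 1223 at 9 h, and by 12 h they were 1494 and 1193, against 99.6 and 109, 83.1 and 112, and 69.1 and 89.8 in mock cells. Mock cells thus stayed in the range of the 0 h libraries or near it, and LPS and mock libraries did not overlap at any time.

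The fold change of Slc7a2 group means was 4.26 at 1 h and 16.9 at 12 h. The early effect was 2.53 ± 0.18 on the log2 scale (SE, adjusted p = 3.2e-08), and the late effect 3.76 ± 0.15 (adjusted p = 1.7e-12). The late effect exceeded the early one by 1.23 ± 0.24 (adjusted p = 8.6e-04), in a comparison in which 8.17% of all genes were called higher, 22.2% lower and 30.4% in all. Slc7a2 ranked 33 of 3147 genes by late effect, and its calls held at each of the 6 times without any 1 library.

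Slc15a3, the endolysosomal peptide and histidine carrier, also rose late more than early. Its 0 h libraries held 178 and 141 TPM. LPS cells held 300 and 297 TPM at 1 h, 475 and 278 at 2 h, and by 4 h they were 674 and 505, against 166 and 141, 215 and 132, and 217 and 159 in mock cells. The 2 LPS libraries at 2 h were far apart, but both lay above both mock libraries. At 6 h the LPS libraries held 829 and 657 TPM, at 9 h 890 and 590, and at 12 h 850 and 639, against 218 and 136, 178 and 137, and 149 and 138 in mock cells. The level was flat from 6 h on, and LPS and mock libraries did not overlap at any of the 6 times. Replicate 1 was above replicate 2 in 13 of 13 groups.

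The early effect of Slc15a3 was 1.03 ± 0.23 (SE, adjusted p = 0.0041) and the late effect 2.22 ± 0.18 (adjusted p = 2.3e-08). The late effect was larger by 1.19 ± 0.29 (adjusted p = 0.0057). At 1 h the difference of 0.96 was not called (adjusted p = 0.11), and it was called with the replicate block (adjusted p = 8.9e-04). At 2 h it was 1.10 (adjusted p = 0.027), and the call was lost without mock replicate 2 (0.75, adjusted p = 0.26) or LPS replicate 1 (0.72, adjusted p = 0.29). Both the early and the late call held without any 1 library.

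Slc3a2, the CD98 heavy chain, had the highest RNA level of the 8 at 0 h, 314 and 535 TPM, and a small and uneven response. At 1 h its LPS libraries held 802 and 931 TPM against 320 and 413 in mock cells. At 2 h they held 702 and 679 against 629 and 740, and at 4 h 761 and 815 against 667 and 473. LPS and mock libraries were apart at 1 h and 4 h and overlapped at 2 h, where both mock libraries were above those of 1 h. At 6 h the LPS libraries held 615 and 571 TPM against 500 and 787, at 9 h 671 and 997 against 410 and 490, and at 12 h 767 and 679 against 424 and 599. They overlapped again at 6 h and were apart at 9 h and 12 h, so the largest gap was at 1 h.

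The early effect of Slc3a2 was 0.63 ± 0.20 (SE, adjusted p = 0.038) and the late effect 0.43 ± 0.16 (adjusted p = 0.029). The difference was 1.25 ± 0.28 at 1 h (adjusted p = 0.017) and 0.02 at 2 h, with a 95% interval of -0.58 to 0.62. The 1 h call was lost without mock replicate 1 (1.06, adjusted p = 0.21) or LPS replicate 2 (1.14, adjusted p = 0.15), and the 9 h call of 0.87 (adjusted p = 0.022) without the same libraries of that time (0.74 and 0.58). The early call was lost in 6 of 8 fits that each left out 1 library: mock replicate 1 and LPS replicate 2 at 1 h (0.54 and 0.58), and either mock (0.57 and 0.69) or LPS library (0.62 and 0.64) at 2 h. The late call was lost in 6 of 12, namely without replicate 1 of mock (0.33) or LPS (0.42) at 6 h, mock replicate 1 (0.39) or LPS replicate 2 (0.34) at 9 h, and replicate 1 of mock (0.35) or LPS (0.41) at 12 h. Quantile normalization gave 0.51 early (adjusted p = 0.075) and 0.36 late (adjusted p = 0.070), whereas median-ratio rescaling gave 0.84 late (adjusted p = 5.0e-04).

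**Figure D2:**
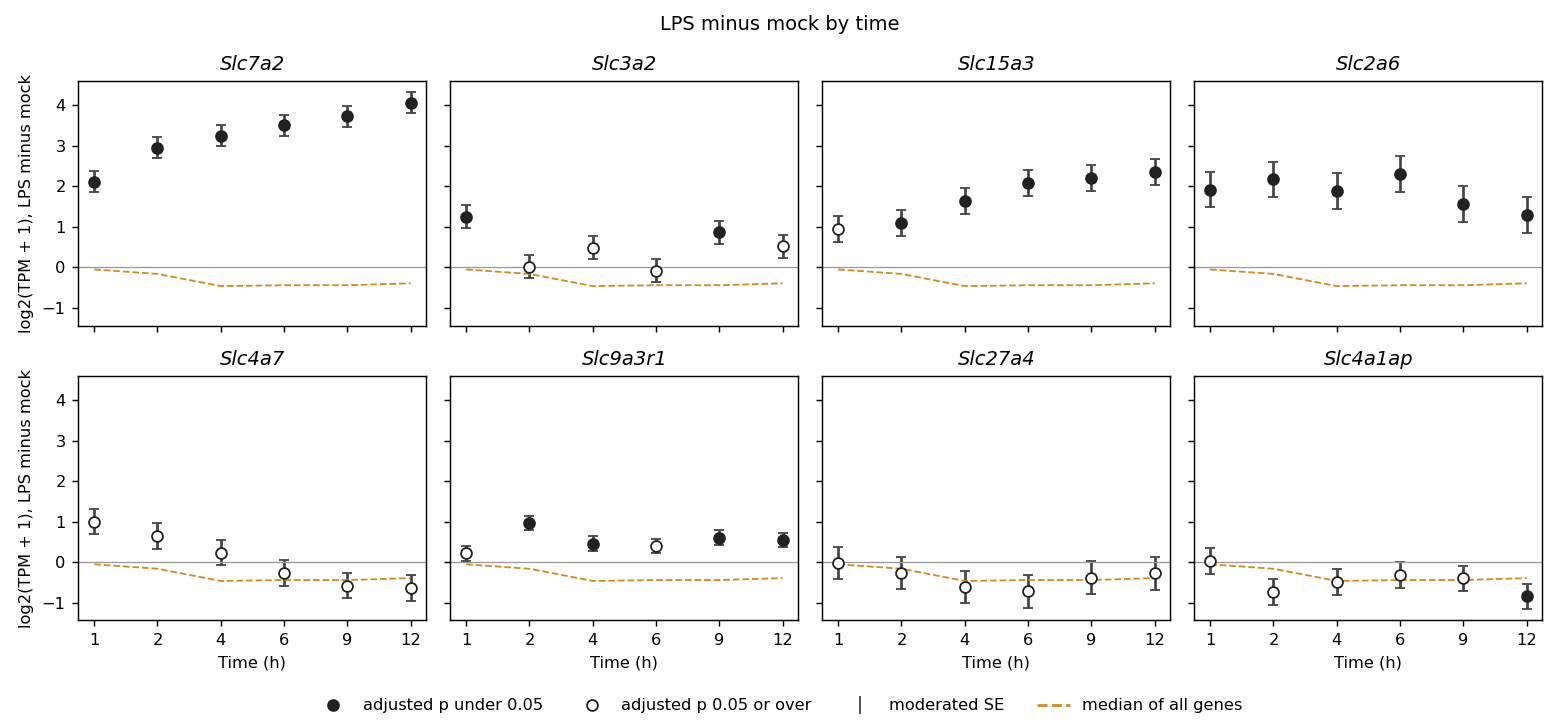
Log2 fold change of TPM plus 1, LPS minus mock, at the 6 times, drawn at even steps, for each of the 8 genes, with bars of 1 SE, filled points where limma's adjusted p was under 0.05, and the median of all genes as a line. Slc7a2 climbs from 2.12 at 1 h to 4.07 at 12 h, and Slc4a7 falls from 1.00 to -0.64.

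Slc2a6, of the glucose carrier family, rose by 1 h and was highest in the middle of the time course. Its 0 h libraries held 209 and 106 TPM. LPS cells held 653 and 429 TPM at 1 h, 812 and 504 at 2 h, and by 4 h they were 754 and 491, against 158 and 123, 165 and 121, and 175 and 155 in mock cells. The lower LPS library of each pair was well above the higher mock library. At 6 h the LPS libraries held 714 and 572 TPM, at 9 h 562 and 282, and at 12 h 406 and 217, against 182 and 91.0, 162 and 111, and 140 and 104 in mock cells. The LPS level at 12 h was thus below that at 2 h in both replicates, yet above mock at every time. Replicate 1 exceeded replicate 2 in 13 of 13 groups, LPS or mock, and the SE of each single time was 0.44. With the replicate number as a block that SE was 0.19. Limma's adjusted p was then 1.4e-06 at 1 h, 2.7e-06 at 9 h and 2.5e-05 at 12 h.

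The early effect of Slc2a6 was 2.05 ± 0.31 (SE, adjusted p = 1.8e-04) and the late effect 1.72 ± 0.25 (adjusted p = 1.8e-05), and both calls held without any 1 library. The late effect differed from the early one by -0.33 ± 0.40 (adjusted p = 0.57, 95% interval -1.18 to 0.52), and this difference was not called. With the replicate block the SE of this difference was 0.18, and it was again not called (limma's adjusted p = 0.13). The late mean takes in 6 h, where the effect was largest (2.30), so a decline from 6 h to 12 h (1.29) was not tested. The 1 h call (1.92, adjusted p = 0.018) was lost without mock replicate 1 (2.10), mock replicate 2 (1.74) or LPS replicate 1 (1.62). The 9 h call (1.57, adjusted p = 0.0097) was lost without mock replicate 2 (1.30) or LPS replicate 1 (1.07), and the 12 h call (1.29, adjusted p = 0.030) without mock replicate 1 (1.50), mock replicate 2 (1.08) or LPS replicate 1 (0.84).

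Slc4a7, the sodium bicarbonate cotransporter, was higher in LPS cells early and, on the deposited scale alone, lower late. Its 0 h libraries held 22.0 and 30.0 TPM, among the lowest levels of the 8. At 1 h the LPS libraries held 40.4 and 60.9 TPM against 24.1 and 24.5 in mock cells, and at 2 h 33.0 and 39.8 against 18.6 and 27.9. Both LPS libraries were above both mock libraries at these times. At 4 h they held 25.4 and 32.6 TPM against 24.5 and 24.1, and at 6 h 19.8 and 24.7 against 20.7 and 34.7. The order changed here, with overlap at 6 h. At 9 h the LPS libraries held 11.6 and 21.5 TPM against 23.0 and 25.4, and at 12 h 11.0 and 16.4 against 21.5 and 21.6, so all late LPS libraries at 9 h and 12 h were below their mock libraries.

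The early effect of Slc4a7 was 0.82 ± 0.22 (SE, adjusted p = 0.016), the late effect -0.49 ± 0.18 (adjusted p = 0.025), and late minus early -1.32 ± 0.29 (adjusted p = 0.0024). No single time was called. With the replicate block, limma's adjusted p was 0.0045 at 1 h, 0.033 at 2 h, 0.029 at 9 h and 0.018 at 12 h. The late value rested on the scaling, with -0.11 (adjusted p = 0.68) after median-ratio rescaling and 0.10 (adjusted p = 0.70) after quantile normalization, while late minus early was -1.01 (adjusted p = 0.022) and -0.89 (adjusted p = 0.064). The early call was lost without LPS replicate 2 at 1 h (0.68), mock replicate 1 at 2 h (0.68) or LPS replicate 2 at 2 h (0.76). The late call was lost without mock replicate 2 (-0.38) or LPS replicate 1 (-0.44) at 6 h, mock replicate 2 (-0.47) or LPS replicate 1 (-0.36) at 9 h, or LPS replicate 1 at 12 h (-0.41). Without LPS replicate 1 the 1 h difference was called (1.29, adjusted p = 0.039), and without LPS replicate 2 the 9 h difference was called (-0.99, adjusted p = 0.039).

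Slc9a3r1, the scaffold NHERF1, was modestly higher in LPS cells, early and late. Its 0 h libraries held 137 and 128 TPM. At 1 h the LPS libraries held 152 and 133 TPM against 143 and 105 in mock cells, at 2 h 194 and 238 against 105 and 114, and at 4 h 163 and 175 against 116 and 129. The groups overlapped at 1 h and were widest apart at 2 h. At 6 h the LPS libraries held 152 and 133 TPM against 100.2 and 115, at 9 h 204 and 178 against 133 and 117, and at 12 h 192 and 191 against 132 and 130. No LPS library from 2 h on fell to the level of a mock library of its time.

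The early effect of Slc9a3r1 was 0.59 ± 0.12 (SE, adjusted p = 0.0030) and the late effect 0.52 ± 0.10 (adjusted p = 3.0e-04), and both held without any 1 library. Median-ratio rescaling raised the late effect to 0.92 (adjusted p = 9.7e-07). At 1 h the difference of 0.22 was not called (adjusted p = 0.53). It was 0.97 at 2 h (adjusted p = 0.0010), a call that also held without each library. At 6 h it was 0.40 (adjusted p = 0.079), and the replicate block gave an adjusted p of 0.043. The calls at 4 h (0.46, adjusted p = 0.048) and 12 h (0.54, adjusted p = 0.022) were each lost in all 4 fits without 1 library, with values of 0.39 to 0.54 and 0.53 to 0.56, and the 9 h call (0.61, adjusted p = 0.011) without mock replicate 2 (0.52) or LPS replicate 1 (0.51).

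The other 2 genes did not pass the F test. Slc4a1ap, kanadaptin, held 30.0 and 46.6 TPM at 0 h, 25.5 to 48.5 TPM in mock libraries and 17.2 to 36.2 TPM in LPS libraries. Its LPS libraries were below both mock libraries at 4 of the 6 times and overlapped them at 2. At 12 h the LPS libraries held 20.3 and 20.6 TPM against 36.1 and 39.0, a difference of -0.84 ± 0.32 (SE, adjusted p = 0.046). The late effect was -0.52 ± 0.18 (adjusted p = 0.020), close to the -0.43 of the median gene. It was -0.13 (adjusted p = 0.62) after median-ratio rescaling and -0.04 (adjusted p = 0.88) after quantile normalization, and the 12 h value was then -0.49 and -0.40, neither called. The late call was lost without mock replicate 2 at 6 h (-0.41) or LPS replicate 1 at 9 h (-0.43), and the 12 h call without any 1 of its 4 libraries (-0.79 to -0.90). With the replicate block, limma's adjusted p was 0.0092 for the F test and 0.041 at 2 h.

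Slc27a4, the fatty acid transport protein, held 22.3 and 27.9 TPM at 0 h, 19.0 to 38.6 TPM in mock libraries and 12.2 to 34.8 TPM in LPS libraries. Its 2 LPS libraries at 1 h, 34.8 and 12.2 TPM, enclosed both mock libraries. LPS libraries were below both mock libraries at 3 times and overlapped them at 3. The late effect was -0.46 ± 0.23 (SE, adjusted p = 0.093, 95% interval -0.95 to 0.03). It was called without LPS replicate 1 at 12 h (-0.62, adjusted p = 0.032) and with the replicate block (adjusted p = 0.020), which also called the 6 h difference of -0.72 (adjusted p = 0.043).

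Mock cells late in the course were compared with 0 h, which asks how levels moved after the medium exchange without LPS. The exchange, the mock stimulation and the time in culture cannot be told apart in this comparison. None of the 8 genes and 0% of all 3147 genes were called by limma, and 0 of the 8 and 89 of all genes had an unadjusted p under 0.05. The largest difference among the 8 was that of Slc3a2, 0.34 ± 0.23 (SE, 95% interval -0.15 to 0.83). The smallest interval, that of Slc9a3r1, still ran from -0.44 to 0.17.

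In resting cells the 8 genes spanned a wide range of ribosome footprint levels. Slc3a2 held 212 and 181 TPM in the 2 footprint libraries, and Slc7a2 held 211 and 185, at percentiles 88.8 and 88.8 of all 6250 rows. Slc2a6 followed with 132 and 117 TPM, Slc15a3 with 89.4 and 81.7, and Slc9a3r1 with 57.9 and 53.8. These 5 neighbours in the order did not overlap between their libraries, apart from Slc3a2 and Slc7a2. Slc27a4 held 19.7 and 13.4 TPM, Slc4a7 16.0 and 15.7, and Slc4a1ap 7.25 and 8.18. Slc27a4 and Slc4a7 overlapped, and Slc4a1ap was lowest.

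Each footprint library was set against the mean of the 2 RNA libraries of 0 h as a log2 difference. The differences of each footprint library were then set to a median of 0 over the 2739 shared genes. The 2 values given for a gene thus show the spread of footprints alone and leave out that of the RNA. The tables were normalized separately, so this is a description with no test. Slc7a2 stood highest at 1.83 (1.95 and 1.71 for the 2 footprint libraries), percentile 98.4 of shared genes. By this difference, the gene with the largest LPS effect of the 8 had many footprints for its RNA at rest. Its RNA at 0 h was at percentile 57.3 of the RNA table and its footprints at percentile 88.8 of theirs. Those percentiles are over unlike gene sets and are not compared. Slc4a1ap stood lowest at -1.43 (-1.48 and -1.37), percentile 9.13. The other 6 lay between -0.48 for Slc9a3r1 and 0.41 for Slc2a6, within the middle range of all genes, whose quartiles were -0.65 and 0.55. Without centring, Slc7a2 was at 1.08 and the other 7 were below 0, so only their order is read.

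**Figure D3:**
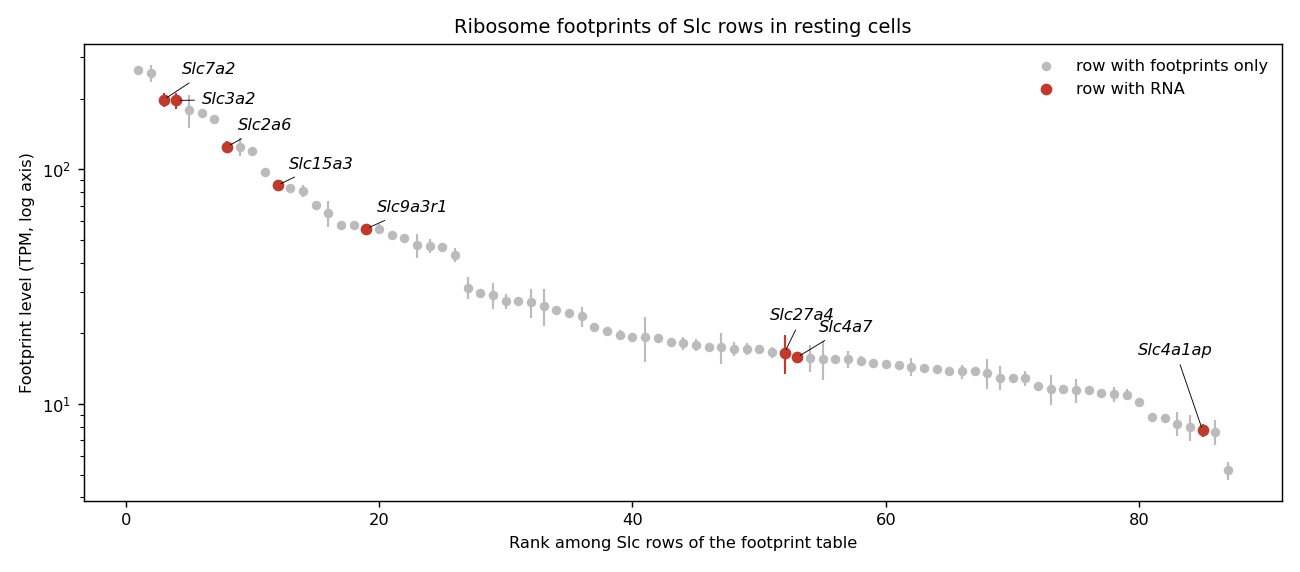
Mean resting footprint TPM on a log axis against rank for the 87 rows with solute carrier names, in red for the 8 genes with an RNA row and in grey for the other 79, with vertical bars from the lower to the higher of the 2 libraries. Slc7a2 and Slc3a2 are at ranks 3 and 4, and Slc4a1ap is at rank 85.

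Lists of related genes were read for context, as counts by limma with the same threshold, beside the 15.5% of all genes higher and 47.7% lower late (26.2% and 25.9% after median-ratio rescaling). Of 9 mitochondrial Slc25 carriers, 2 were higher and 5 lower late, with a median of -0.52, and after median-ratio rescaling 2 were higher and 2 lower. Slc25a22, a glutamate carrier, rose from 48.7 TPM in mock to 193 TPM in LPS cells (log2 1.91 ± 0.12, adjusted p = 6.9e-10), and Slc25a24, an ATP-magnesium/phosphate carrier, fell by 1.39. Slc25a12, an aspartate and glutamate carrier, rose by 1.42. Both sideroflexins listed, the serine carriers Sfxn1 and Sfxn3, were lower late (-0.88 and -1.04), and 1 of the 2 was still called after median-ratio rescaling.

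Among 15 enzymes that use imported amino acids, 0 were higher and 9 lower late, with a median of -0.64, and after median-ratio rescaling 1 was higher and 5 lower. The counts of lower genes were near the shares of all genes under both scalings. Spermidine synthase Srm fell by 3.24 and the serine synthesis enzyme Phgdh fell by 2.19 on the log2 scale, and mitochondrial serine hydroxymethyltransferase Shmt2 fell by 1.74. Arg1, Ass1 and Asl, enzymes of arginine use and synthesis, were named after their values were seen. Arginase Arg1 stood at 30.1 TPM in LPS and 13.4 TPM in mock cells late (0.67, adjusted p = 0.093, and 1.05 with adjusted p = 0.012 after median-ratio rescaling). Ass1 and Asl, which together rebuild arginine from citrulline, had log2 differences of -0.01 and -0.64, and limma called Asl alone (adjusted p = 0.0014). After median-ratio rescaling they were 0.40 and -0.24, neither called.

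Of 13 glycolysis and lactate genes, 3 were higher and 3 lower late, and 7 higher and 2 lower after median-ratio rescaling. Hexokinase Hk2 rose by 1.14 and phosphofructokinase Pfkp by 1.10, while lactate dehydrogenase Ldhb fell by 1.55. Of 10 genes of lysosomal amino acid sensing by mTORC1, 1 was higher (Mitf, 0.86) and 3 were lower, among them Tsc2 (-1.17), and 4 were higher and 1 lower after rescaling. Of 4 ABC transporters 2 were higher, the antigen peptide pumps Tap1 (2.65) and Tap2 (1.45), and 2 were lower. Of 8 P-type pumps 2 were higher, among them the sodium pump subunit Atp1b3 (0.90), and 3 lower, among them the calcium pump Atp2a3 (-1.74). Of 11 genes of iron, zinc and copper handling, 3 were higher, among them Lcn2 (2.06) and Fth1 (1.18), and 6 were lower, among them Mt1 (-1.24). Rescaling by median ratios left 1 of these 6 lower, and Mt1 was then not called (-0.83, limma's adjusted p = 0.062).

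**Figure D4:**
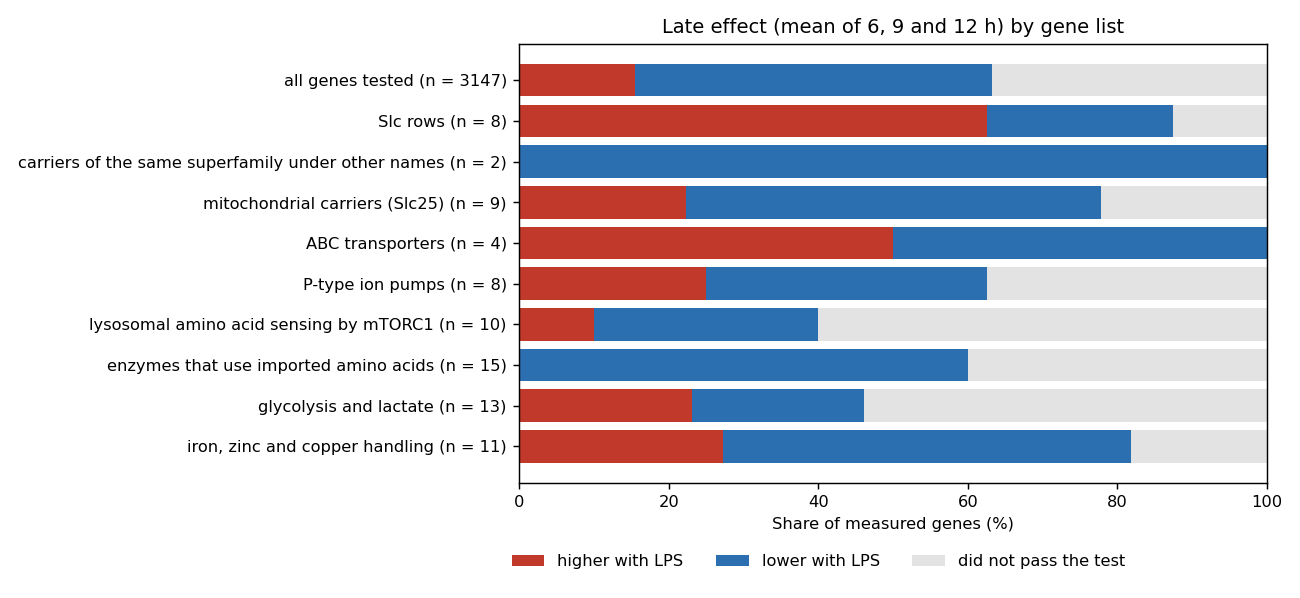
Stacked bars of the percent of measured genes called higher (red) and lower (blue) late in each list and among all 3147 genes, on the deposited scale by limma's adjusted p under 0.05, with the number measured beside each name. The 8 solute carrier genes were called higher in 5 and lower in 2 cases, while 0 of the 15 enzymes that use imported amino acids were called higher (0 of the 8 lower and 1 of the 15 higher after median-ratio rescaling).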

How the data were processed

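Gene levels are TPM values deposited by the authors, who made the RNA table with Bowtie 0.12.7 and RSEM 1.2.3 on mm9, per the submitters' processing notes. Poly(A) RNA was sequenced strand-specifically, per the labels' protocols. Footprint values were taken as TPM because each deposited column sums to 1000000, and the submitters' processing notes name Bowtie2 and TopHat2 for them. TPM holds no depth, so no counting error could be given. Columns for 0 h are given in both arms with identical values and were used once. The descriptions of the 4 h samples name another hour than their titles, time field and table, and 4 h was used.

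The 8 genes and the lists were chosen with earlier results of these data known. A filter of 1 TPM in 2 or more libraries removed no gene. On log2(TPM + 1), which understates changes of low genes, limma 3.58.1 in R 4.3.3 fitted 1 mean for each of 13 groups (13 residual degrees of freedom) with a variance trend. P-values were adjusted by the Benjamini-Hochberg method over all genes, tests were two-sided, and ± marks moderated SE. Members were named by late, early and late-minus-early calls and by level, and up to 3 genes of each list by the size of their late effect among those called late. Arg1, Ass1 and Asl were outside this rule. Alternatives were pseudocounts of 0.1 and 5, no filter, a filter at 10 TPM, quantile normalization, rescaling by median ratios, a replicate block, fits to the compared groups alone and leaving out each library. Scaled and blocked counts of the lists were added after seeing the data.

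Titles give replicate numbers 1 and 2 in each group. Replicate differences in LPS and mock cells correlated across genes at all 6 times (Pearson 0.23 to 0.69). The replicate block therefore took the numbers to pair the libraries, from the data and not from a stated batch. The main fit did not pair them, so its SE takes in any shift shared by libraries of the same number. The script was tested on simulated data, drawn without any pairing of replicates. At 6 h alone limma recovered 14.9% of 1.5-fold, 52.2% of 2-fold and 83.3% of 4-fold changes, and 6.54% of its calls were false. For the late effect it recovered 52.2%, 86.6% and 95.5%. A difference not called at a single time may thus still be present. Figures used matplotlib 3.10.9 in Python 3.11.15.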

Additional observations from a re-analysis of the deposited data

Results flagged for a closer look

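For 3 of the 8 genes the LPS effect differed between the late times (6, 9 and 12 h) and the early times (1 and 2 h), by limma's test of that difference itself, a share near the 30.4% of all genes called in that comparison. Slc4a7, the sodium bicarbonate cotransporter, had a late minus early log2 difference of -1.32 ± 0.29 (SE, adjusted p = 0.0024), going from 43.5 against 23.8 TPM in mock cells early to 17.5 against 24.5 TPM late. That difference was not called after quantile normalization (-0.89, adjusted p = 0.064). The late value of Slc4a7 was not called after median-ratio rescaling (-0.11) or quantile normalization (0.10). Slc7a2, the cationic amino acid carrier, had a difference of 1.23 ± 0.24 (adjusted p = 8.6e-04), going from 577 against 94.5 TPM to 1274 against 93.7 TPM. Slc15a3, the peptide and histidine carrier, had a difference of 1.19 ± 0.29 (adjusted p = 0.0057), going from 337 against 164 TPM to 743 against 159 TPM.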

How the results depend on the processing

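Precision rests on 2 libraries a group, and TPM gives no depth. The number of genes among the 8 that were lower late was 2 as reported (47.7% of all genes), 0 with median-ratio rescaling (25.9%) and 0 with quantile normalization (31.0%). It was 1 in fits to the compared groups alone. Those fits also gave 0 called at 1 h, 2 at 2 h, 2 at 9 h and 3 at 12 h, and have fewer samples. The share of all genes called was not counted for them or for the fits without 1 library. Whether the 8 lost calls more than other genes did is therefore unknown. The replicate block gave 5 called at 1 h, 6 at 2 h, 5 at 6 h, 6 at 9 h and 6 at 12 h, where it called 17.3%, 27.7%, 57.8%, 56.9% and 53.2% of all genes. Among the calls of single genes it moved those of Slc15a3, Slc4a7, Slc4a1ap, Slc9a3r1 and Slc27a4 given above and changed no other call. The late effect of Slc4a7 turned from -0.49 to 0.10 under quantile normalization, and the cause was not tested. Quantile normalization also gave 5 higher early (9.53% of all genes), 4 higher late (22.3%) and 2 called for late minus early (21.1%). Leaving out 1 library at a time gave 5 to 7 genes called by the F test, 1 to 3 at 1 h, 3 to 4 at 2 h, 3 at 4 h, 3 at 6 h, 3 to 5 at 9 h, 2 to 3 at 12 h, 4 to 6 higher early, 4 to 5 higher late, 0 to 2 lower late and 3 for late minus early. Slc3a2 was also called after median-ratio rescaling at 4 h (0.94, adjusted p = 0.025) and 12 h (0.89, adjusted p = 0.031) by limma, Slc9a3r1 at 6 h (0.82, adjusted p = 0.0018), and Slc15a3 at 2 h was not called under quantile normalization (1.00, adjusted p = 0.056). In fits to the compared groups alone the 1 h call of Slc7a2 (adjusted p = 0.065) and the early call of Slc9a3r1 (adjusted p = 0.059) were among those lost.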

Other observations

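Footprints of resting cells were listed for 87 rows with solute carrier names, 79 of them without a row in the RNA table. The median footprint level was 70.7 TPM for the 8 genes with RNA and 17.9 TPM for the other 79, beside 29.0 TPM over all 6250 rows. The footprint median over the 2739 shared genes was not taken, so the gap between the 8 and the 79 is not read as particular to carriers. The highest of the 79 were the taurine carrier Slc6a6 at 265 TPM, the glucose carrier Slc2a1 (GLUT1) at 257 TPM, the heme carrier Slc48a1 at 178 TPM, the cystine-glutamate exchanger subunit Slc7a11 at 173 TPM and the copper protein Slc31a2 at 164 TPM. The lactate carrier Slc16a3 held 125 TPM and the zinc carrier Slc39a1 held 119 TPM. Slc7a5, a light chain that pairs with Slc3a2, held 27.1 TPM against 196 TPM for Slc3a2. Grouped by the substrate of the family each row is named for, there were 23 rows of amino acids (median 27.1 TPM), 19 of metals (17.9 TPM), 14 of ions and pH (16.5 TPM) and 13 of nucleosides and nucleotide sugars (15.5 TPM). A further 8 rows were of organic anions, lipids and acyl groups (14.5 TPM), 4 of sugars (75.5 TPM), 3 of monocarboxylates (31.3 TPM), 2 of phosphate (23.1 TPM) and 1 of vitamins and cofactors (57.9 TPM). The ions and pH rows include Slc9a3r1 and Slc4a1ap, which are not carriers. The response of the 79 to LPS was not analysed here.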
